A study of Mus musculus with 6 samples.

Results

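The SLAM family is a group of immunoglobulin-type receptors on the surface of blood and immune cells, and 9 of its genes were measured here in the cerebellum of 15-month-old mice. The members were taken by symbol from the deposited table of read counts, which holds 43346 genes, and all 9 were found: Ly9, Cd84, Cd48, Slamf1, Slamf6, Slamf7, Slamf8, Slamf9 and Cd244. The compared groups were 3 mice without both working copies of Tmem106b (Tmem106b-/-, KO) and 3 wild-type mice (Tmem106b+/+, WT). Each group held 1 female and 2 males, all 6 were 15 months old, and each mouse gave 1 library of whole cerebellar tissue. Tmem106b encodes a protein of the lysosomal membrane, and the study's title links its loss to the death of Purkinje cells, the output neurons of the cerebellar cortex. How the knockout allele was made is not given in the sources used here. Replicate 1 of each genotype is the female.

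SLAM receptors work mostly by binding a copy of themselves on a neighbouring cell. The exceptions are Cd48, a lipid-anchored protein, and Cd244, which bind each other. Most members carry tyrosine motifs in their cytoplasmic tail that recruit the small adaptors SAP (Sh2d1a) and EAT-2 (Sh2d1b1), and through them kinases such as Fyn, or the phosphatases Inpp5d, Ptpn6 and Ptpn11. Slamf8 and Slamf9 have short tails without these motifs. The family is best known from lymphocytes, natural killer cells and macrophages, and in the healthy brain the microglia, its resident macrophages, carry transcripts of several members, Cd84 among them.

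Among the 4 better measured members the difference between the genotypes varied in size, and whether the members differ from each other was not tested. Ly9 and Cd84 had 2.76 and 2.28 times their WT level in KO cerebella, Cd48 had 1.87 times and Slamf9 1.28 times. The mice in KO and WT did not overlap for Ly9, Cd84 and Cd48, and did overlap for Slamf9. Slamf6 was measured on few counts, and Slamf1, Slamf7, Slamf8 and Cd244 were too low to judge. A member was called too low where edgeR's expression filter dropped it, which asks for about 10 counts in a library of middle size in at least 3 libraries. The filter kept 16934 genes and 5 of the 9 members. The family was chosen by its counts in KO against WT, which were known when the members were proposed. These differences are therefore given as a description, without p-values.

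Because the members are neighbours on chromosome 1 but have separate promoters, promoters of 3 of them are shown: Cd84 and Cd48, whose groups did not overlap, and Slamf9, whose groups overlapped. Each run is 300 bases of the RefSeq sequence of build GRCm38.p6, 250 before to 50 after the start of the gene, 5′ to 3′ on the plus strand, which is the coding strand of all 3. The windows are chr1:171839447-171839746 for Cd84, chr1:171681742-171682041 for Cd48 and chr1:172475110-172475409 for Slamf9. Capitals mark GAGGAA or its reverse complement TTCCTC, the core of the site read by PU.1, the transcription factor of macrophages and microglia.
Cd84: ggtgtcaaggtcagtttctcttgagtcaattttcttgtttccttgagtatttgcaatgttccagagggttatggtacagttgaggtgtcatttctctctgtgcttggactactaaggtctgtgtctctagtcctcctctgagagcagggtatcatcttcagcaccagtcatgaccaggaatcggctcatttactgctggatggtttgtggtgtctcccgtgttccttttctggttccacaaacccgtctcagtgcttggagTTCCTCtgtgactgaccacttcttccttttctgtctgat
Cd48: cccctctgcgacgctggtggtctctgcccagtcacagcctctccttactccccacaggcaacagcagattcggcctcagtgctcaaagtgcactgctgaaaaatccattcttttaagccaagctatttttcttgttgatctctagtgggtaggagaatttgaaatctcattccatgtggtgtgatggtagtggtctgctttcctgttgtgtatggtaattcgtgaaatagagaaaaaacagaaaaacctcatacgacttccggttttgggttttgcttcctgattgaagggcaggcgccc
Slamf9: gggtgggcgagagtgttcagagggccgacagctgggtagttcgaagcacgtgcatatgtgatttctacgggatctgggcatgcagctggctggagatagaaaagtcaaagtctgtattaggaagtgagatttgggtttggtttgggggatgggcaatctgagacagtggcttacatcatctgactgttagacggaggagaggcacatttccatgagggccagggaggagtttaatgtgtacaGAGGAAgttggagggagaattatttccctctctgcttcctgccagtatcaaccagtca
The Cd84 window held the motif 1 time on the opposite strand, the Slamf9 window 1 time on the coding strand, and the Cd48 window did not hold these letters. Promoters were given for 8 of the 9 members, all but Ly9, and 4 of these 8 held the motif on one strand or the other (Cd84, Cd244, Slamf8 and Slamf9). Of all 32851 promoters of the same length, 9289 held it, or 28.3%. Among the 3 printed windows the letters thus stood in that of Cd84, with groups apart, and in that of Slamf9, with overlapping groups, and not in that of Cd48, with groups apart.

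The libraries held 25245778 to 28584165 counts in KO and 29658618 to 31135185 in WT, with an RNA integrity number of 10 in all 6. The sample titles hold a code shared by KO replicates 1 and 2 and WT replicate 1, which the labels do not explain. Tmem106b, the targeted gene (chromosome 6, 13069759 to 13089269, mm10), had 69.7, 67.9 and 62.7 CPM (read counts scaled to library size) in KO mice, against 230, 267 and 238 CPM in WT mice. That left 27.2% of the WT level, and the part of the transcript these reads come from is unknown. Genes of the labelled tissue were abundant: 6 Purkinje cell genes summed to 5535 to 6455 CPM in KO and 8769 to 9542 CPM in WT. Of these 6, Car8, Itpr1, Ppp1r17 and Rgs8 fell in KO, and 0 passed without KO replicate 2, WT replicate 2 or WT replicate 3. One library of each genotype stood apart from the others. On the first principal component (35.6% of the variance) WT replicate 1 lay at -40.1 and the rest at -10.8 or above, and on the second (26.9%) KO replicate 1 lay at 38.5 against -14.4 to 5.98. Choroid plexus genes varied widely within both genotypes, with sums of 1663, 5139 and 1641 CPM in KO replicates 1 to 3 and 85.1, 4774 and 3158 CPM in WT replicates 1 to 3.

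Ly9 (ENSMUSG00000004707, chromosome 1, 171588624 to 171607410) encodes a self-binding receptor known from T cells, B cells and macrophages. It was read with 76, 75 and 68 counts in KO mice, against 38, 27 and 23 counts in WT mice. Scaled to library size this was 2.99, 2.58 and 2.46 CPM in KO, against 1.26, 0.889 and 0.775 CPM in WT. Every KO mouse lay above every WT mouse, with a wide gap between the groups. The means were 2.68 ± 0.279 CPM in KO and 0.976 ± 0.256 CPM in WT (SD, n = 3 each), a log2 fold change of 1.47 with a standard error (SE) of 0.21. The female was the highest of her genotype in both groups. Leaving out the libraries that stood apart gave 1.58 without KO replicate 1 and 1.59 without WT replicate 1.

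Cd84 (ENSMUSG00000038147, chromosome 1, 171839697 to 171890718) encodes another self-binding receptor, found on platelets, B cells, macrophages and microglia. It had the most counts of the family, 158, 128 and 137 in KO mice against 88, 56 and 62 in WT mice. Its levels were 6.22, 4.39 and 4.96 CPM in KO, against 2.93, 1.84 and 2.09 CPM in WT. All 3 KO mice lay above all 3 WT mice, and here too the female was the highest of each genotype. The means were 5.19 ± 0.933 CPM in KO and 2.29 ± 0.567 CPM in WT (SD, n = 3 each), a log2 fold change of 1.19 with an SE of 0.16. Without KO replicate 1 it was 1.24, and without WT replicate 1 it was 1.25. The spread of Cd84 among mice of one genotype was above counting error (chi-square per degree of freedom 4.38), while that of Ly9 was close to it (1.38).

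**Figure D1:**
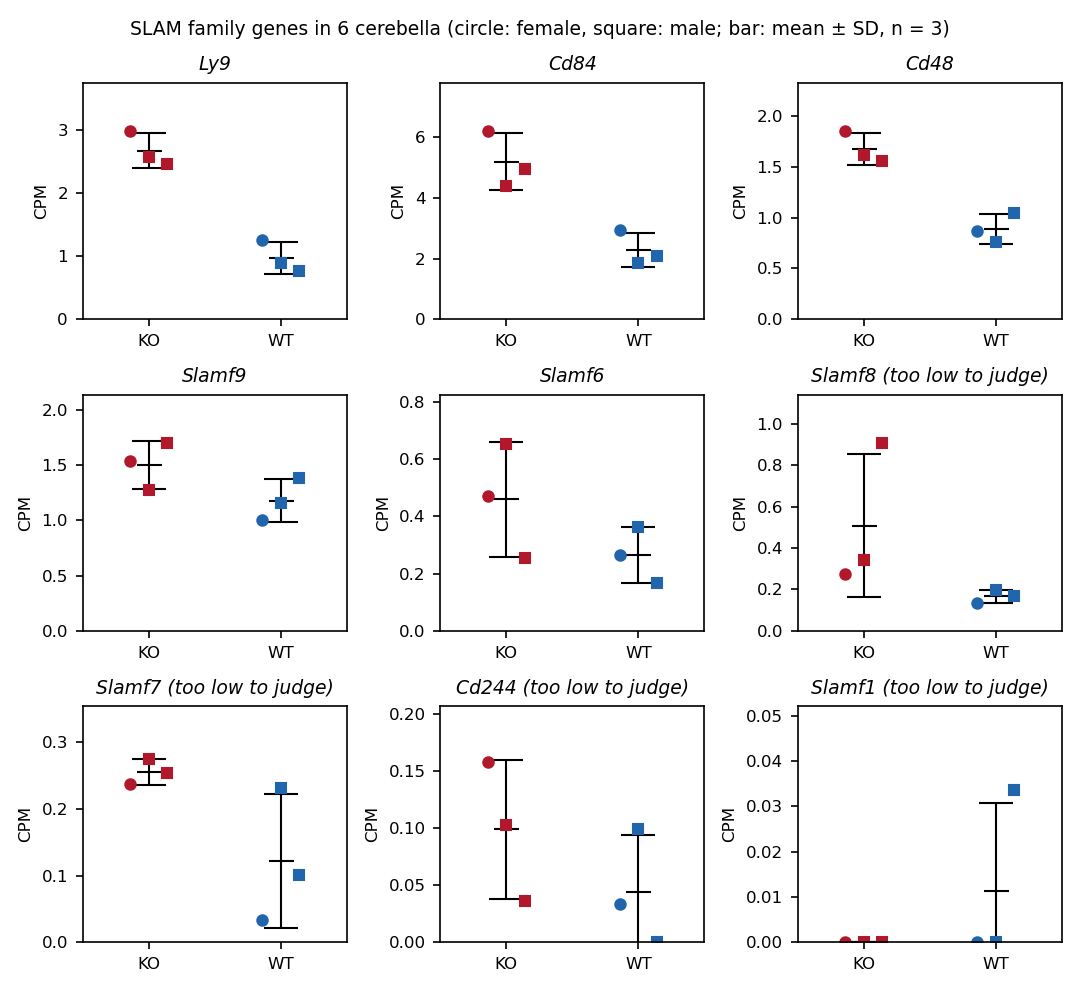
Each panel plots 1 member, with the level in CPM (linear axis from 0) of the 3 KO mice on the left and the 3 WT mice on the right, females as circles and males as squares, and bars for the mean and SD. The KO mice lie above the WT mice for Ly9, Cd84 and Cd48, the groups overlap for Slamf9 and Slamf6, and the last 4 panels rest on at most 25 counts in any library (bars that would reach below 0 end at the axis).

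Slamf6 (ENSMUSG00000015314, chromosome 1, 171917515 to 171953170) encodes a self-binding receptor of T cells, B cells and natural killer cells. It passed the filter on few counts, 12, 19 and 7 in KO mice against 8, 11 and 5 in WT mice. The groups overlapped, since KO replicate 3 (0.253 CPM) lay below WT replicates 1 and 2 (0.266 and 0.362 CPM). Its log2 fold change was 0.78 with an SE of 0.48, and the 95% interval of the fold reached from 0.803 to 3.69, so this depth shows neither a rise nor its absence. It was also the member whose estimate depended most on single libraries, at 0.36 without KO replicate 2 and 1.12 without KO replicate 3.

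Slamf7 (171632403 to 171653035) and Slamf1 (171767127 to 171801184), the other self-binding members, were below the filter. Slamf7, a receptor of natural killer cells, plasma cells and macrophages, had 6, 8 and 7 counts in KO mice and 1, 7 and 3 in WT mice. The summed count was 21 in KO and 11 in WT (95% exact Poisson interval 5.49 to 19.7), and the interval of the KO sum overlapped that of the WT sum, although every KO mouse lay above every WT mouse in CPM. Slamf1, the founding member, known from activated lymphocytes, had no count in the 3 KO mice and 1 count in WT replicate 3. A count of 0 allows up to 3 counts, so nothing can be said of Slamf1 beyond its very low level in this tissue.

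Cd48 (ENSMUSG00000015355, chromosome 1, 171682009 to 171705258), which encodes the lipid-anchored ligand of Cd244 found on most blood cells, had 47, 47 and 43 counts in KO mice against 26, 23 and 31 in WT mice. Its levels were 1.85, 1.61 and 1.56 CPM in KO, against 0.865, 0.758 and 1.04 CPM in WT. The groups did not overlap, and its female KO mouse was the highest of the 6, but the highest WT mouse was a male. The means were 1.67 ± 0.155 CPM in KO and 0.889 ± 0.145 CPM in WT (SD, n = 3 each), a log2 fold change of 0.91 with an SE of 0.24. Its replicates differed by no more than counting error (chi-square per degree of freedom 0.545).

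Cd244 (171559193 to 171609746), the receptor of natural killer and T cells that binds Cd48, had 4, 3 and 1 counts in KO mice and 1, 3 and 0 in WT mice. The sums of 8 counts in KO (95% exact Poisson interval 3.45 to 15.8) and 4 in WT (1.09 to 10.2) cannot be told apart. Both were thus read in nearly all libraries, the receptor with at most 4 counts in any. The gene model of Cd244 spans all of Ly9, and whether the counting used strand is not given in the sources used here. If it did not, reads of the pair cannot be told apart where the models overlap. Cd244 received 12 counts in all libraries together and Ly9 307.

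The short-tailed pair lies apart from the others. Slamf9 (ENSMUSG00000026548, 172475358 to 172478575), a receptor of macrophages and dendritic cells, had 39, 37 and 47 counts in KO mice against 30, 35 and 41 in WT mice. Its levels of 1.53, 1.27 and 1.70 CPM in KO overlapped the 0.998, 1.15 and 1.38 CPM in WT. The log2 fold change was 0.35 with an SE of 0.24, and the 95% interval of the fold, 0.873 to 1.87, holds no change. Slamf8 (172581758 to 172590568), which in mice curbs the oxidative burst of phagocytes, fell below the filter with 7, 10 and 25 counts in KO mice and 4, 6 and 5 in WT mice. Its sums were 42 in KO (30.3 to 56.8) and 15 in WT (8.40 to 24.7). Of the 42 KO counts 25 came from KO replicate 3 alone, so Slamf8 is left unjudged, although every KO mouse lay above every WT mouse.

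Set against the whole table, Ly9 and Cd84 passed a Benjamini-Hochberg adjusted threshold of 0.05 in edgeR's quasi-likelihood test over the 16934 genes, with sex as a second term, and Cd48, Slamf6 and Slamf9 did not. This threshold was passed by 48 genes, 0.283% of all tested, with 0.136% higher and 0.148% lower in KO. Every KO mouse lay above every WT mouse for 7.77% of all genes, and here for 3 of the 5 tested members. A log2 fold change above 0 was seen in 50.1% of all genes and in all 5 members tested. Since the members were chosen with this contrast known, nothing is read from these shares. Ly9 passed in 11 of 14 alternative analyses, Cd84 in 10 and Cd48 in 0. These alternatives reuse the same libraries and the contrast by which the family was chosen. They show only the dependence on processing and on single libraries. Neither Ly9 nor Cd84 passed without WT replicate 2, WT replicate 3 or KO replicate 2, where 0.00582%, 0.00581% and 0.0929% of all genes passed. Without the sex term, where 0.360% of all genes passed, Ly9 did and Cd84 did not. Both passed in the others. There the share of all genes was 0.443% with RLE size factors, 0.751% without a filter, 0.501% with a mean of at least 1 CPM, 1.43% in DESeq2, 0.254% in limma-voom, 0.651% in males and 1.60% with GC and length offsets. With 1 library left out it was 0.540% (WT replicate 1), 0.679% (KO replicate 1) and 0.906% (KO replicate 3).

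**Figure D2:**
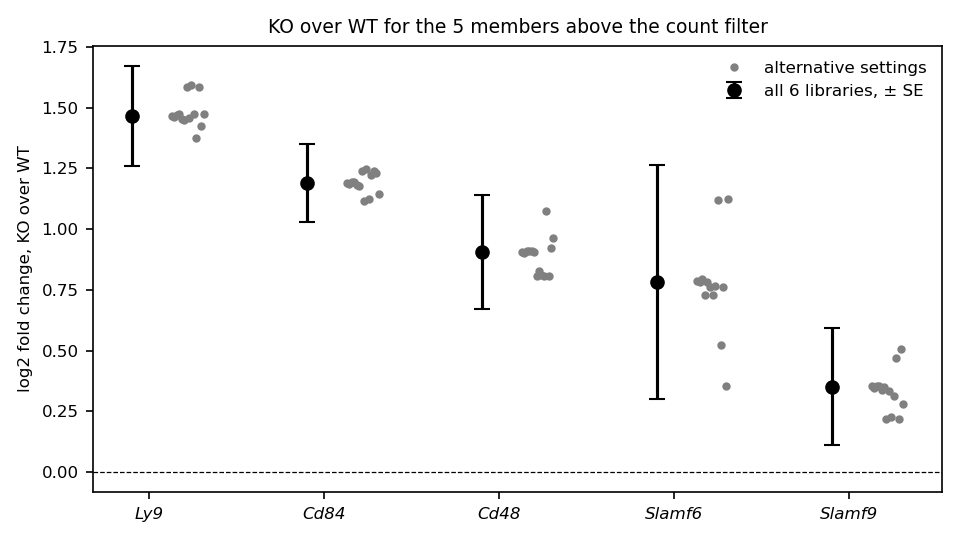
Log2 fold change, KO over WT, of the 5 members above the count filter, with black points for all 6 libraries (bars are the SE) and grey points for the alternative analyses. All points lie above 0, those of Ly9 between 1.38 and 1.59 and those of Cd84 between 1.11 and 1.25, and those of Slamf6 spread widest, from 0.36 to 1.12.

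The family as a whole was read with 349, 327 and 335 counts in KO mice, against 196, 168 and 171 in WT mice. The summed level was 12.4 ± 1.27 CPM in KO and 5.94 ± 0.515 CPM in WT (SD, n = 3 each), 2.08 times as high in KO. Ly9, Cd84, Cd48 and Slamf9 made up 87.8% to 91.7% of the family's counts in KO and 83.9% to 92.9% in WT. Some shares within the family differed between the genotypes without overlap. Ly9 took 20.3% to 22.9% of the family's counts in KO and 13.5% to 19.4% in WT, while Slamf9 took 11.2%, 11.3% and 14.03% in KO and 15.3% to 24.0% in WT. These shares did not overlap between the groups for Ly9 and Slamf9, and overlapped for Cd84 and Cd48. As shares of one sum they are not independent of each other.

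Per kilobase of gene model, as the file gives its length, the order of the members also differed. In KO mice Cd48 was highest at 1.41 ± 0.131 CPM per kilobase, followed by Slamf9 at 1.14 ± 0.165, Cd84 at 0.827 ± 0.149 and Ly9 at 0.809 ± 0.0842 (SD, n = 3). In WT mice Slamf9 came first at 0.897 ± 0.147 CPM per kilobase, before Cd48 at 0.748 ± 0.122, Cd84 at 0.365 ± 0.0905 and Ly9 at 0.295 ± 0.0773 (SD, n = 3). Among KO mice the values of Cd48 and Slamf9 did not overlap, narrowly, while those of Slamf9 and Cd84 did, and so did those of Cd84 and Ly9. Among WT mice Slamf9 and Cd48 overlapped, and so did Cd84 and Ly9. In bulk tissue, fewer cells of a type and less RNA per cell cannot be told apart, and the same holds for more.

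To see how the members moved beside the cells that carry them, their levels were divided by summed marker levels in each library. A list of 15 microglial genes summed to 294 to 312 CPM in KO and 221 to 248 CPM in WT. Of these 15, 2 rose, Fcrls among them, and the other 13 did not pass in edgeR with the filter and TMM scaling alone. The median log2 fold change of the 15 was 0.26, against 0.0003 for all genes tested. Of the 15, 10 had every KO mouse above every WT mouse, against 7.77% of all genes. An unadjusted p under 0.05 in edgeR was seen for 8. Fcrls, a scavenger receptor-like gene of microglia, had 10.1 ± 2.76 CPM in KO and 3.85 ± 2.05 CPM in WT (SD, n = 3 each). Abundant members that did not pass were the colony stimulating factor receptor Csf1r with 49.5 ± 5.88 CPM in KO and 42.3 ± 3.90 CPM in WT, the fractalkine receptor Cx3cr1 with 35.3 ± 1.02 CPM in KO and 26.4 ± 2.03 CPM in WT, and Tgfbr1 with 25.0 ± 2.27 CPM in KO and 20.8 ± 0.810 CPM in WT.

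Relative to 1000 CPM of this microglial sum, Ly9 had 8.77 ± 0.813 CPM in KO and 4.08 ± 0.989 CPM in WT (SD, n = 3 each), 2.15 times as much. Cd84 had 17.0 ± 2.61 CPM in KO and 9.53 ± 1.98 CPM in WT, 1.78 times as much. Cd48 had 5.49 ± 0.448 CPM in KO and 3.71 ± 0.437 CPM in WT, 1.48 times as much. The groups stayed apart for these 3 members. Slamf9 had 4.92 ± 0.586 CPM in KO and 4.94 ± 0.808 CPM in WT, a ratio of 0.996 with overlapping groups. Slamf6 overlapped too, at 1.34 times. Relative to the microglial sum, Slamf9 was thus level between the genotypes, while Ly9, Cd84 and Cd48 were higher in every KO mouse. The members were chosen by their KO against WT counts, which these ratios also use, so the ratios are given as a description. How many of all genes stay apart over this sum was not computed.

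**Figure D3:**
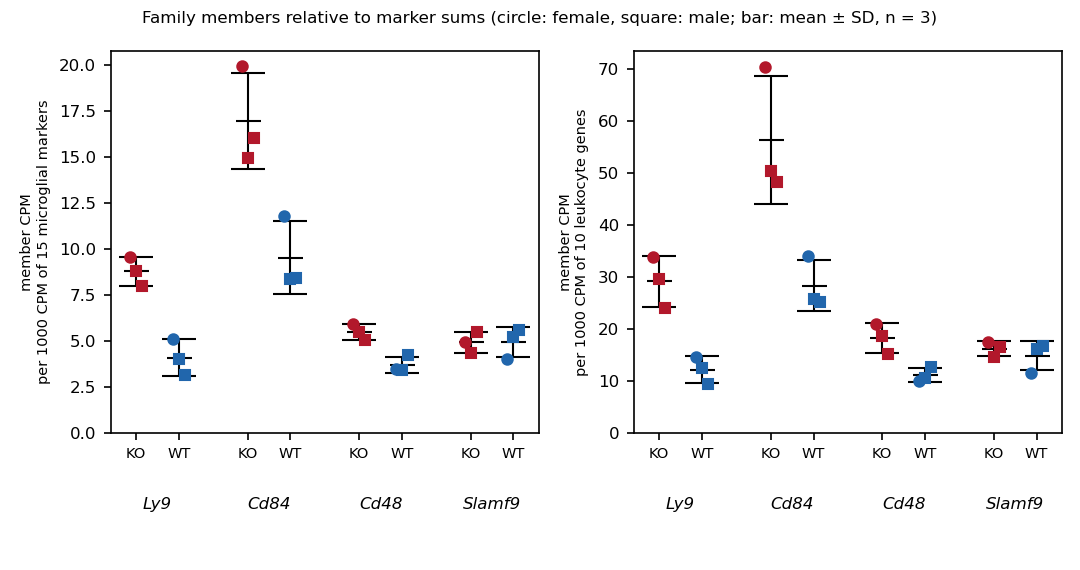
Level of 4 members per 1000 CPM of the 15 microglial markers (left) and of the 10 leukocyte genes (right), on linear axes from 0, with KO left of WT for each gene, females as circles, males as squares, and bars for the mean and SD. Ly9, Cd84 and Cd48 stay apart between the genotypes over both sums, and Slamf9 overlaps over both.

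A list of 10 genes shared by all leukocytes gave the same picture for these members. It summed to 87.2 to 103 CPM in KO and 71.7 to 86.2 CPM in WT, and 0 of 10 passed in edgeR, DESeq2 or limma-voom, with 7 at an unadjusted p under 0.05 in edgeR and 1, Cd52, passing without KO replicate 1 and without a filter. Its median log2 fold change was 0.53. The actin regulator Coro1a, the most abundant of the 10, had 31.4 ± 6.15 CPM in KO and 36.8 ± 3.76 CPM in WT, while Laptm5 had 22.4 ± 3.66 CPM in KO and 17.1 ± 2.45 CPM in WT (SD, n = 3 each). Over this sum the ratio of KO to WT was 2.40 for Ly9, 1.99 for Cd84 and 1.64 for Cd48, without overlap, and 1.09 for Slamf9, with overlap. These ratios too are a description, and they depend on Coro1a. It made up a large part of the sum and had a log2 fold change of -0.24, while 8 of the 10 genes were above 0. Of the 10, 7 had every KO mouse above every WT mouse, against 7.77% of all genes. Ratios over a sum without Coro1a were not computed. Microglia in degenerating tissue switch on a further gene programme, listed here by 20 genes with 21 gene models, since Clec7a has a pair of models. In this list 7 models rose (Clec7a, Lpl, Lyz2, Gpnmb, Cd68, Lgals3 and Lilrb4), 0 fell, and the median log2 fold change was 1.20. The count was 15 in DESeq2, 13 with KO replicate 1 or WT replicate 1 left out, 4 with KO replicate 2 left out, and 0 with WT replicate 2 or 3 left out, where none of the 15 microglial genes passed either. The log2 fold changes of the list ran from -0.19 for Igf1 to 2.57 for Cst7. Neither passed in edgeR with the filter and TMM scaling alone, while Cst7, not Igf1, passed in DESeq2. Of the 21 models 15 had every KO mouse above every WT mouse, against 7.77% of all genes. Among the abundant members of the list, Ctsb had 0.05, Apoe 0.22 and Ctsd 0.34, and none passed in that edgeR fit. Ctsd, with groups apart, passed in DESeq2. The part of these microglial changes in the family's values was not tested.

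Other cells that carry SLAM receptors were near the limit of detection. Of 17 T cell genes 4 were tested and 0 passed in edgeR, DESeq2 or limma-voom, and 0 had an unadjusted p under 0.05. The other 13 had at most 18 counts in any library, and the T cell receptor chain gene Cd3e had 0, 4 and 5 counts in KO mice and 1, 2 and 8 in WT mice. The T cell sum was 4.72 to 5.90 CPM in KO and 4.04 to 4.86 CPM in WT. Of the B and plasma cell genes 3 were tested, 0 passed by any of these tools and 1 had an unadjusted p under 0.05. The B cell transcription factor gene Pax5 was near 0, with 1, 0 and 0 counts in KO mice and 0, 0 and 1 in WT mice. The sum of that list was 3.11 to 3.67 CPM in KO and 2.26 to 2.39 CPM in WT, without overlap, and most of the difference was Cd22, a receptor that microglia carry as well as B cells. Cd22 had 49, 43 and 32 counts in KO mice, against 17, 12 and 22 in WT mice (edgeR adjusted p = 0.156), and it passed when no filter was applied. Among natural killer cell genes all but Eomes, also a gene of cerebellar unipolar brush cells, had at most 10 counts in any library, and Ncr1, which defines these cells, had 0 in KO and at most 2 in WT.

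The remaining lists of blood and border cells gave no passing gene in edgeR with the filter and TMM scaling alone, or in limma-voom. Border macrophage genes (9 tested, none at an unadjusted p under 0.05) summed to 9.77 to 11.6 CPM in KO and 7.45 to 10.1 CPM in WT. The median log2 fold change of these 9 was 0.52, with 7 above 0 and 2 below, and 0 had groups apart. Their most abundant member Mrc1 had 3.04 ± 0.395 CPM in KO and 2.14 ± 0.738 CPM in WT (SD, n = 3 each). Monocyte genes (3 tested, none at an unadjusted p under 0.05) summed to 36.4 to 47.6 CPM in KO and 32.8 to 40.6 CPM in WT, nearly all of it Vcan, which other brain cells also make. The monocyte receptor gene Ccr2 had 11, 11 and 6 counts in KO mice and 9, 17 and 8 in WT mice. Dendritic cell genes (3 tested, 1 at an unadjusted p under 0.05) summed to 105 to 111 CPM in KO and 113 to 119 CPM in WT. Nearly all of it was Zbtb46 (means of 75.0 CPM in KO and 76.7 CPM in WT) and Flt3 (31.8 and 38.1 CPM). The defining genes Xcr1 and Clec9a had at most 2 counts in any library, so the sum is not read as a level of these cells. Neutrophil genes (3 tested, 2 at an unadjusted p under 0.05) summed to 1.70 to 5.04 CPM in KO and 0.824 to 2.23 CPM in WT, with Elane at 0 throughout. Red cell genes summed to 77.2 to 157 CPM in KO and 71.8 to 88.5 CPM in WT. Of these 5 genes 3 had an unadjusted p under 0.05 in edgeR, and 1, Hba-a2, passed in DESeq2 and in edgeR with GC and length offsets. Platelet genes, with Gp6 at 0, had a single tested member, Itga2b, with 24, 23 and 28 counts in KO mice and 33, 21 and 38 in WT mice. The platelet chemokine gene Ppbp, below the filter, had 10, 12 and 7 counts in KO mice and 5, 2 and 2 in WT mice, without overlap in CPM, and Treml1 had at most 4 counts. The platelet sum was 1.30 to 1.57 CPM in KO and 0.824 to 1.42 CPM in WT, with overlap. The part of blood cells in the family's values was not tested.

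**Figure D4:**
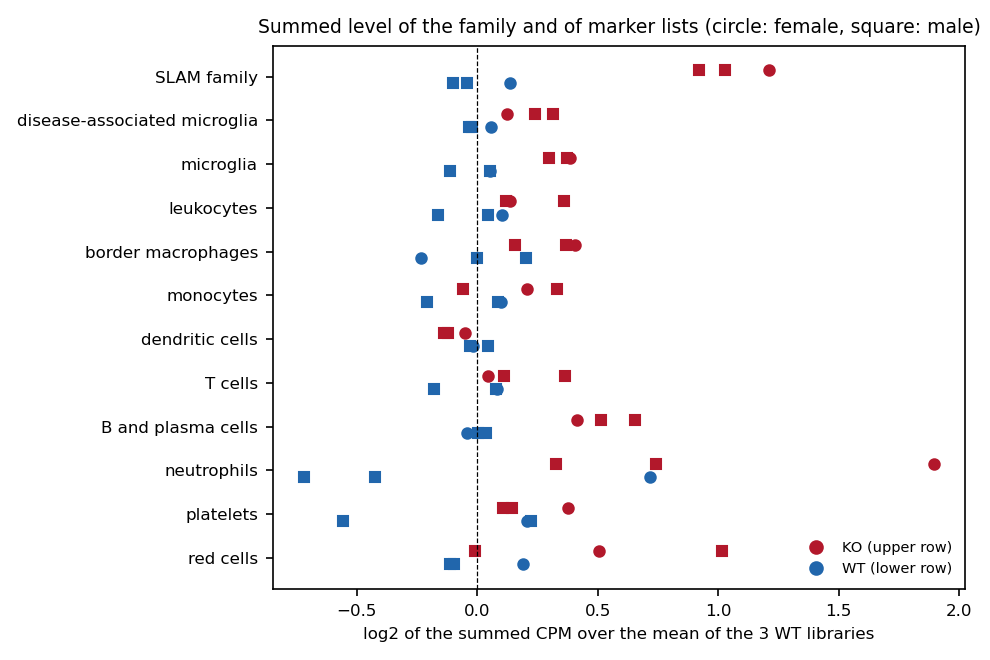
Summed CPM of the family and of 11 marker lists in each library, as the log2 of its ratio to the mean of the WT libraries, with KO in the upper and WT in the lower row of each pair, females as circles and males as squares. The SLAM family, the microglial lists, the leukocyte genes and the B and plasma cell genes lie above WT without overlap, the dendritic cell sum lies below it without overlap, and the neutrophil sum, the most spread, overlaps, as do those of border macrophages, monocytes, T cells, platelets and red cells. The dendritic cell sum is nearly all Zbtb46 and Flt3. The sum of disease-associated microglia is mostly Ctsb, Apoe and Ctsd, whose log2 fold changes were 0.05, 0.22 and 0.34.

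Among the genes through which SLAM receptors signal, 20 were listed and 16 tested. Of these 0 passed in edgeR, in DESeq2, in limma-voom or in any other alternative, with 1 at an unadjusted p under 0.05 in edgeR. The median log2 fold change was 0.02, with 10 above 0 and 6 below, against a median of 0.0003 for all genes. The adaptors that bind the tails were hardly read. Sh2d1a (SAP) had 1, 0 and 5 counts in KO mice and 0, 0 and 1 in WT mice, Sh2d1b1 (EAT-2) had at most 2 counts in any library, and Sh2d1b2 had 0 everywhere. The kinase Lck of T cells, with 4, 13 and 18 counts in KO mice and 9 in each WT mouse, was also below the filter. The most abundant partners are made by most brain cells and had log2 fold changes near 0: the phosphatase Ptpn11 at 0.01 (SE 0.06), the endocytic adaptor Ap2m1 at -0.08 (SE 0.08), Arhgef7 at 0.01 (SE 0.07), Grb2 at -0.13 (SE 0.08) and the kinase Fyn at -0.12 (SE 0.07). The autophagy genes Becn1, Pik3c3 and Pik3r4, whose proteins are known to join with Slamf1, had values of 0.04, -0.03 and -0.04.

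The pair of phosphatases that blood cells make had the only non-overlapping groups of this list. Ptpn6, which also stands in the leukocyte list, had 4.22 ± 0.284 CPM in KO and 2.74 ± 0.160 CPM in WT, a log2 fold change of 0.62 (SE 0.15) with an edgeR adjusted p = 0.208. Inpp5d had 7.08 ± 1.21 CPM in KO and 5.81 ± 0.293 CPM in WT (SD, n = 3 each), a log2 fold change of 0.28 (SE 0.16) with an edgeR adjusted p = 0.676. Both were chosen for naming after their values were seen. Groups that do not overlap in either direction were found for 14.1% of all genes, and here for 2 of 16.

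All 9 members lie on chromosome 1. Cd244, Ly9, Slamf7, Cd48, Slamf1, Cd84 and Slamf6 follow each other within 394 kb (171559193 to 171953170, mm10), and Slamf9 and Slamf8 lie 522 kb beyond them. Of the 72 other genes within 500 kb of the cluster 41 were tested, and 0 passed in edgeR or limma-voom, with 6 at an unadjusted p under 0.05 in edgeR. The share of all genes at that unadjusted p is not given here. Their log2 fold changes ran from -0.45 to 0.86 with a median of -0.03. The tested genes next to or within the cluster had small values: Alyref2 before it at -0.09 (SE 0.21), the pseudogene Tma7-ps between Cd48 and Slamf1 at -0.24 (SE 0.20), and the planar polarity gene Vangl2 behind it at -0.04 (SE 0.12). In DESeq2, and in edgeR without a filter or with GC and length offsets, 2 neighbours passed, Fcgr3 and Adamts4. Fcgr3, an antibody receptor of macrophages and microglia, had 12.1 ± 0.935 CPM in KO and 8.06 ± 1.37 CPM in WT (SD, n = 3 each), a log2 fold change of 0.59 (edgeR adjusted p = 0.165). Adamts4, a protease gene of oligodendrocytes, had a log2 fold change of -0.45 (edgeR adjusted p = 0.120). Fcer1g, which did not pass in any alternative, had a log2 fold change of 0.70 (SE 0.18, edgeR adjusted p = 0.238), with groups apart. Most of the 41 thus lay near 0, and 7 had every KO mouse above and 2 every KO mouse below every WT mouse. Over all genes 7.77% had every KO mouse above, and 14.1% had groups apart in either direction. Whether the 41 differ from the table as a whole was not tested.

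**Figure D5:**
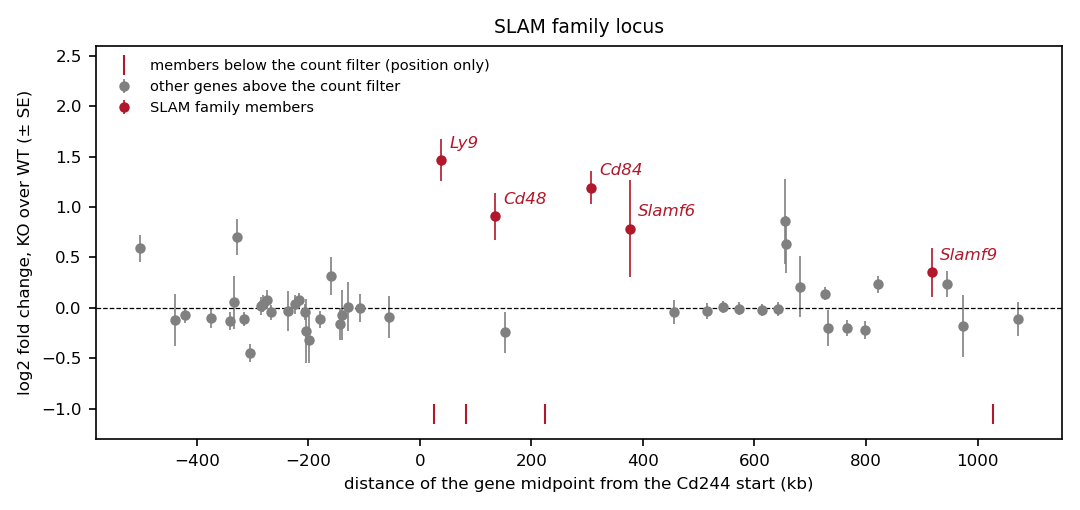
Log2 fold change, KO over WT, with SE bars, of the tested genes around the family on chromosome 1, by the distance of each gene's midpoint from the start of Cd244, with members in red, other genes in grey, and red ticks for the position of members too low to judge. Ly9 and Cd84 stand highest, and most neighbours lie close to 0.

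The genes most like Ly9 and Cd84 over the 6 libraries were sought by the root mean square difference of centred log2 CPM, among 13161 genes. Nearest to Ly9 were Serpina3n (0.137), Gpnmb (0.179), Cd84 (0.182), Lyz2 (0.211) and Clec7a (0.211). Nearest to Cd84 were Serpina3n (0.0884), Mpeg1 (0.150), Tlr7 (0.173) and, in the fifth place, Ly9 (0.182). Serpina3n, a secreted protease inhibitor known from reactive astrocytes, was thus first for both, with 12.6 ± 1.80 CPM in KO and 5.26 ± 1.49 CPM in WT (SD, n = 3 each). Mpeg1, a pore-forming protein of macrophages, had 50.3 ± 8.66 CPM in KO and 24.4 ± 1.83 CPM in WT (SD, n = 3 each). Ly9 and Cd84 were each among the 5 genes nearest to the other. Of the genes named here, all but Tlr7 passed the threshold in KO against WT, and the measure draws on the same difference, so the likeness is a description of these 6 libraries.

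Sex was a contrast the choice of members did not use. Cd84 had a mean of 4.57 CPM in the 2 females and 3.32 CPM in the 4 males, a log2 difference, female over male, of 0.49 (SE 0.17), with an edgeR adjusted p = 0.720. Ly9 had 2.13 CPM in females and 1.68 CPM in males, a log2 difference of 0.40 (SE 0.21) with an edgeR adjusted p = 0.720. The values of Cd48, Slamf6 and Slamf9 were 0.10 (SE 0.25), 0.03 (SE 0.51) and -0.14 (SE 0.26). So 0 of the 5 members passed, in edgeR, DESeq2 or limma-voom, and 1 had an unadjusted p under 0.05 in edgeR, which 6.68% of all genes had. Over all genes tested 6 passed, 0.0354%. Both libraries that stood apart are female, so sex and those libraries cannot be told apart.

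Within each sex the values are given without a test, since each genotype has 1 female. On log2 CPM, the female pair differed by 1.20 for Ly9, 1.07 for Cd84, 1.04 for Cd48 and 0.59 for Slamf9. The male means differed by 1.52 for Ly9, 1.22 for Cd84, 0.78 for Cd48 and 0.21 for Slamf9. The difference between the sexes in the KO effect, female minus male, was -0.35 (SE 0.45) for Ly9, -0.16 (SE 0.35) for Cd84, 0.28 (SE 0.53) for Cd48, 0.05 (SE 1.07) for Slamf6 and 0.39 (SE 0.53) for Slamf9. In edgeR's quasi-likelihood test of this interaction 0 of the 5 members passed or had an unadjusted p under 0.05. In limma-voom 0 passed. In DESeq2 the interaction had an adjusted p for 8726 genes only. Whether these held any member is not given, so passing cannot be judged there. In DESeq2 0 members had an unadjusted p under 0.05. Over all genes 0 passed in edgeR (0%), and 18.8% had an unadjusted p under 0.05. With 1 female per genotype the standard errors exceeded these estimates, so a difference between the sexes of the size of the KO effect on Slamf9 would not be detectable here.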

How the data were processed

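Per the labels, RNA from cerebellar tissue of 6 mice was extracted with a column kit and sequenced on Illumina libraries. The authors deposited 1 table of raw counts per gene, with symbols, coordinates (mm10) and gene-model lengths. Per the submitters' processing notes, STAR aligned the reads to mm10. Which tool counted them, with which strand setting and gene annotation, is not given in the sources used here. Libraries held 25245778 to 31135185 counts. Intervals of counts cover counting error only. Pairs of replicates of one genotype differed beyond counting noise (7.44 to 30.7 in chi-square per degree of freedom), so none is a copy. Whether they come from separate litters is not stated, and p-values measure the spread between these mice.

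edgeR 4.0.16 in R 4.3.3 was used. Low genes were dropped with filterByExpr by genotype (a minimum count of 10 and a minimum total of 15), and TMM set the library scale. A model of sex plus genotype (3 residual and 5.41 prior degrees of freedom, biological coefficient of variation 11.2%) was fitted with glmQLFit (robust, legacy). The genotype and sex terms, and in a second model their interaction, were tested by two-sided quasi-likelihood F tests with Benjamini-Hochberg adjustment over all tested genes and a threshold of 0.05. For KO against WT the share of all genes at an unadjusted p under 0.05 is not given, so such counts have no background. An SE is the absolute log2 fold change over the square root of F. Log2 CPM used a prior count of 2. The steps were tested on simulated counts without a sex effect. Changes were set only in genes with a higher mean count than Cd48, Slamf9 and Slamf6 had. Recovery of changes at such low counts was not tested.

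The alternatives tried were DESeq2 1.42.0, limma-voom (limma 3.58.1), size factors of the RLE type, omitting the filter, keeping genes averaging 1 CPM or more, no sex term, males only, GC and length offsets (loess, span 0.5, GC content known for 99.0% of tested genes) and each library left out. After seeing the data, alternatives for the interaction and for the count of genes differing by sex were added. The members and lists were chosen with earlier results of these data known. Named were all members, in each list genes past the threshold or with the highest levels, genes next to members, and the 5 genes most like Ly9 and Cd84. Exceptions named after their values were seen are Ptpn6, Inpp5d, Fcgr3, Adamts4, Fcer1g, and the low genes of marker lists that define a cell type, with Cd22. Some genes that this rule names are not reported here. Promoters are RefSeq sequences of GRCm38.p6.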

Additional observations from a re-analysis of the deposited data

How the results depend on the processing

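The log2 fold changes of Ly9, Cd84, Cd48 and Slamf9 stayed above 0 in all 14 alternatives, with ranges of 1.38 to 1.59, 1.11 to 1.25, 0.81 to 1.07 and 0.22 to 0.51, and that of Slamf6 in the 13 that kept it (0.36 to 1.12). Which of them passed varied more, with the libraries in the fit and, for Cd84, also with the sex term. Of the members, 2 passed with all libraries, 1 without the sex term, and 0 to 2 when 1 library was left out. The whole table gave 48 genes in KO against WT, 75 with RLE size factors, 199 without a filter, 74 with a mean of at least 1 CPM, 232 in DESeq2, 111 in males, 271 with GC and length offsets, and 1 to 156 when 1 library was left out. Neighbours of the cluster passed 0 times, but 2 passed without a filter, in DESeq2 and with GC and length offsets. Between females and males 6 genes passed, 41 without a filter, 57 in DESeq2, 12 with GC and length offsets, and 8 to 69 when 1 library was left out. The interaction of genotype and sex gave 0 genes in edgeR, with 3189 at an unadjusted p under 0.05, and 1 with RLE size factors, 1584 without a filter, 538 in DESeq2 and 3 with GC and length offsets, none of them a member. In DESeq2 only 8726 genes had an adjusted p for it, and whether they held any member is not given. The cause of these shifts was not tested. No paired analysis was possible because the replicate numbers only follow the order of deposit, and the one code that sample titles share across genotypes is unexplained and held by a single WT library. Counts limit the family: Ly9 had 23 to 76 counts a library and Slamf6 5 to 19, and the 4 members under the filter remain unjudged.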
